A study of Homo sapiens with 2 samples.

Results

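CHD4 occupancy was examined at 9 genes for transcription factors of the neural crest: *PAX3*, *TFAP2A*, *TFAP2B*, *MSX1*, *FOXD3*, *SNAI2*, *ETS1*, *ZEB2* and *LEF1*. They were chosen with earlier results of these data known, so comparisons with other genes below are descriptions and not tests. Each gene was taken as its annotated record together with the 10000 bp before its start, called its locus here, and every CHD4 peak overlapping a locus by at least 1 bp was counted. Of the 60126 peaks called across the genome, 80 lay at the 9 genes, or 0.133% of the list. CHD4 was measured by chromatin immunoprecipitation and sequencing (ChIP-seq) in 501Mel, an established human melanoma cell line from 1 CHD4 library and 1 library of the input DNA. Both came from chromatin fixed with 0.4% paraformaldehyde. There were no replicates, so no difference between genes could be set against a spread between libraries. The peak list holds no read counts, and the depth is therefore not in it. A list of peaks has no expression values either, so the melanoma identity of the cells could not be checked against markers.

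The neural crest is a transient population of migratory cells that arises at the border of the neural plate and gives rise to melanocytes, peripheral neurons, glia and much of the facial skeleton. Border genes such as *PAX3*, *MSX1* and the *TFAP2* genes act first, followed by specifiers such as *FOXD3*, *SNAI2* and *ETS1*, and by factors that accompany the loss of epithelial character and the migration of the cells. Melanoma derives from melanocytes and retains the activity of part of this network. CHD4 is an ATP-dependent chromatin remodeller and a core subunit of the NuRD complex, which joins nucleosome remodelling with histone deacetylation and is found both at repressed and at active genes.

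The sequence under the strongest peak of a gene, that is, the peak with the highest fold enrichment of ChIP over background, is shown for 4 genes, as examples of intronic peaks and of a peak at a start. Each window is 300 bases of GRCh37 (hg19) centred on the peak and is written along the minus strand, from which all 4 genes are transcribed. The *LEF1* window, chr4:109037925-109038224, lies in intron 3 and has the 187 bases of the peak in capitals. The *ETS1* window, chr11:128337519-128337818, lies in intron 8 and has its match to the AP-1 motif in capitals. The *ZEB2* window, chr2:145254656-145254955, lies in intron 2, and the *TFAP2A* window, chr6:10414954-10415253, lies over the end of exon 1 and the start of intron 1. Both are shown with CG dinucleotides in capitals, of which *ZEB2* has 1 and *TFAP2A* has 27.
LEF1: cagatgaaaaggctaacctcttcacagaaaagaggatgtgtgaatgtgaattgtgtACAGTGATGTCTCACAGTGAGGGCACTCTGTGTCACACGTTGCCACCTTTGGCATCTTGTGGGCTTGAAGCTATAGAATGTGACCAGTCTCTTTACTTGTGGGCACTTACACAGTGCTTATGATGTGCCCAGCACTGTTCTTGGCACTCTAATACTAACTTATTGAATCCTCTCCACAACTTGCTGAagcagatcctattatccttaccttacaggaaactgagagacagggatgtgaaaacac
ETS1: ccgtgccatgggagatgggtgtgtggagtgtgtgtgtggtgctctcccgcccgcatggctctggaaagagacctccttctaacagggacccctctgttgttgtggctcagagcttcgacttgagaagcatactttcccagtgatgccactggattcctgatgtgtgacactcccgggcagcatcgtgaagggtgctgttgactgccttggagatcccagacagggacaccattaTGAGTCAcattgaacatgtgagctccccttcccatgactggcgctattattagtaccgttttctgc
ZEB2: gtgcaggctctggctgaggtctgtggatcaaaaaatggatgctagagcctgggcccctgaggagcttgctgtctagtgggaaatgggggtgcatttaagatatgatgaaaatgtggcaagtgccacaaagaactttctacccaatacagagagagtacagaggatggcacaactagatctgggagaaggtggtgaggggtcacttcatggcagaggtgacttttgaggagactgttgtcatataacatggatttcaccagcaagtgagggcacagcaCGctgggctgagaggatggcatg
TFAP2A: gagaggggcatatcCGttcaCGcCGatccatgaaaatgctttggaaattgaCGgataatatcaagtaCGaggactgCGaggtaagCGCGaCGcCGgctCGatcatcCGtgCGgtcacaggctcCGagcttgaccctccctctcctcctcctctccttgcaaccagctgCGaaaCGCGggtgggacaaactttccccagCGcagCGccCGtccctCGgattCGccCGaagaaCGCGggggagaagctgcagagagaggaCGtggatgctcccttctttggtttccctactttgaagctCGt

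Of the 9 genes, 6 had at least 1 CHD4 peak, namely *PAX3*, *TFAP2A*, *SNAI2*, *ETS1*, *ZEB2* and *LEF1*. Across all 20162 protein-coding genes the share with a peak by the same rule was 63.2%, so the count of genes with a peak lay near the background. The list includes weak peaks, with a q, the false discovery rate given by the peak caller, of up to 0.0991, so a peak here means a call at that limit and its absence no more than the lack of one. The same 6 genes had a peak with a q of at most 0.01, against 48.2% of protein-coding genes. A −log10 q of at least 5 was reached at 2 genes, *PAX3* and *LEF1*, against a background of 5.46%. A peak lay within 1000 bp of the start of the canonical transcript in 5 of the 9 genes, *PAX3*, *TFAP2A*, *SNAI2*, *ZEB2* and *LEF1*, where the background was 34.6%. With a q of at most 0.01 this count fell to 2, *SNAI2* and *LEF1*, against 21.4% of protein-coding genes.

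The number of peaks per gene separated the members more than their presence did. *ZEB2* had 24 peaks, *ETS1* 18, *PAX3* 17 and *LEF1* 15, and these 4 long genes held 92.5% of the 80 peaks. *TFAP2A* had 4 peaks and *SNAI2* had 2, whereas *TFAP2B*, *MSX1* and *FOXD3* had none. Long genes have more room for peaks, and each gene was therefore ranked among the protein-coding genes whose locus length was within 25% of its own. Of the genes similar in length to *ZEB2*, 99.3% had fewer peaks, and the corresponding shares were 98.8% for *PAX3*, 97.8% for *ETS1* and 96.4% for *LEF1*. For the shorter genes they were 87.8% for *TFAP2A* and 81.7% for *SNAI2*. The plot of peak number against locus length shows the 4 long genes in the upper part of the range of genes of their size.

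**Figure D1:**
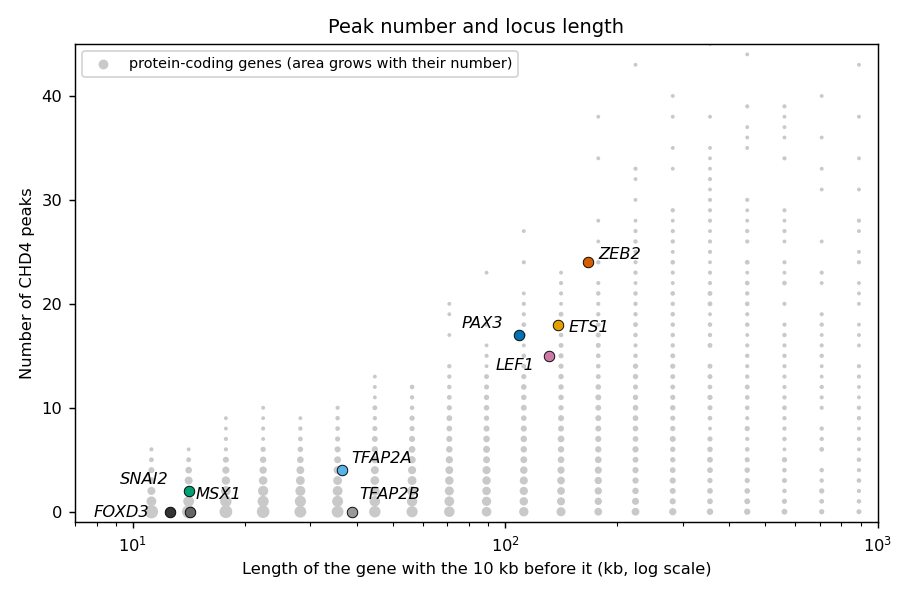
Number of CHD4 peaks (vertical axis) against the length of the gene with the 10 kb before it (horizontal axis, kb, log scale) for the 9 genes in colour and for protein-coding genes grouped by length in grey, within the axis limits drawn. *ZEB2*, *ETS1*, *PAX3* and *LEF1* carry 24, 18, 17 and 15 peaks, and *TFAP2B*, *MSX1* and *FOXD3* lie at 0.

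Peaks covered 94225 of the 662364 bp of the 9 loci, or 14.2%, compared with 2.61% over the loci of all protein-coding genes. The density was 12.1 peaks per 100 kb in the 9 loci and 2.96 per 100 kb over protein-coding loci. Against the 500000 bp on either side of each locus, the summed density was 3.05 times higher within the loci (95% interval 2.37 to 3.90 from the exact binomial, which covers counting error only). The ratio was 13.0 at *ETS1*, whose flanks held 10 peaks, and 4.16 at *SNAI2*. It lay between 2.28 and 2.94 at *LEF1*, *TFAP2A*, *PAX3* and *ZEB2*, and was 0 at *TFAP2B*, *MSX1* and *FOXD3*. The summed ratio was 2.59 when peaks within 1000 bp of each other were merged. It was not computed over all protein-coding genes, so it has no background. The summed values rest mostly on the 4 long genes, which held 74 of the 80 peaks.

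The fold enrichment had a median of 3.0 over the 80 peaks (range 2.43 to 5.19; 95% interval of the median 2.92 to 3.14 from order statistics), against 3.09 over all peaks outside the mitochondrial sequence. A fold enrichment above that overall median was found for 33 of the 80 peaks, or 41.25%. Of the 80 peaks, 35 had a q of at most 0.01, or 43.75% (Wilson 95% interval 33.4% to 54.7%), compared with 48.5% of all peaks. The median −log10 q was 1.94 at the 9 genes and 1.97 over the list. By gene, the median fold enrichment was highest at *SNAI2* (3.85, 2 peaks), followed by *PAX3* (3.37), *ETS1* (3.21), *LEF1* (3.0), *TFAP2A* (2.99) and *ZEB2* (2.70). The ranges of neighbouring genes in this order overlapped.

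**Figure D2:**
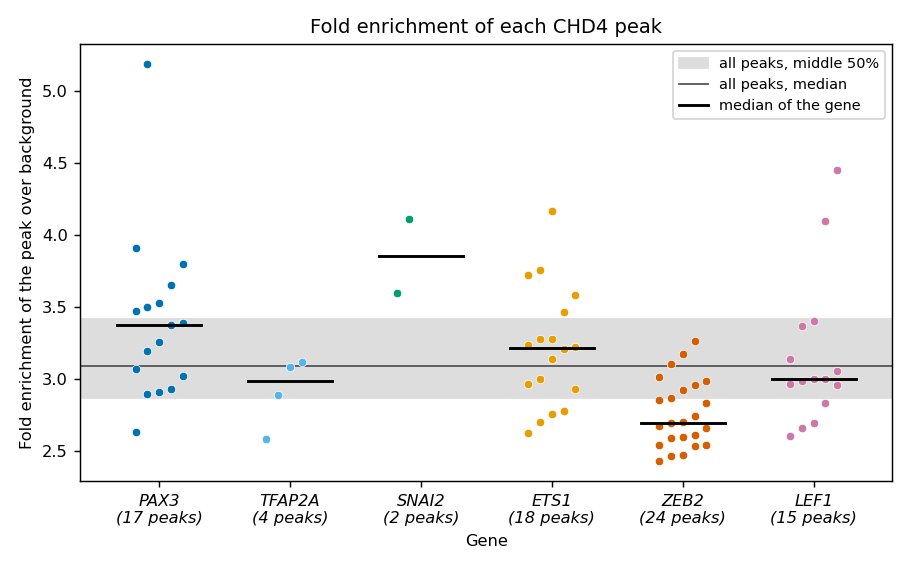
Fold enrichment of each CHD4 peak over background (vertical axis, a ratio) for the 6 genes with a peak (horizontal axis), with a black bar at the median of each gene, a grey line at the median of all peaks and a grey band over their middle 50%. The peaks of *ZEB2* lie between 2.43 and 3.26, and the single point above 5 belongs to *PAX3*.

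*PAX3*, a paired-box and homeodomain factor of the neural plate border that later acts upstream of the melanocyte regulator *MITF*, lies on chromosome 2 from 223064606 to 223163717. Its 17 peaks included 1 at the start, from 672 bp before to 133 bp after it, which covered part of exon 1 and overlapped the lncRNA gene *CCDC140* on the opposite strand. This peak was modest, with a fold enrichment of 2.93. A run of 12 peaks lay in intron 4, the longest of 3991 bp, with fold enrichments from 2.63 to 3.80. The strongest peak, of 284 bp, reached a fold enrichment of 5.19 with a −log10 q of 7.56, and 99.7% of all peaks had a lower fold (Wilson 95% interval 99.6% to 99.7%).

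The position of that peak followed the gene structure closely. It held the whole of exon 7 and reached less than 50 bp into the intron on either side. The nearest other peak, 158 bp long with a fold enrichment of 3.53, covered 115 bp of exon 6 and 43 bp of intron 5. Among inner exons of protein-coding genes that lie wholly under a peak, 13 of 2783, or 0.467%, had a peak reaching at most 50 bp past each end of the exon, a limit chosen after the *PAX3* peak was seen. What sets this outline was not tested. The last 20206 bp of *PAX3*, from 78906 bp after its start, had no peak.

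*TFAP2A* encodes an AP-2 factor of the border that is also active in melanocytes, and lies on chromosome 6 from 10393419 to 10419892. Its canonical transcript starts 4585 bp after the start of the gene record, and the strongest of its 4 peaks, chr6:10414373-10415836, lay over this canonical start. The peak held the whole of exon 1 (134 bp) with 801 bp of intron 1 and 529 bp before the transcript, and overlapped the antisense gene *TFAP2A-AS1*. Its fold enrichment of 3.12 lay close to the middle of the list, with 52.7% of all peaks lower. Another peak (3.08) overlapped 171 bp of the last exon, and the remaining 2 (2.89 and 2.58) lay between 7056 and 9317 bp before the start of the record, both over the lncRNA gene ENSG00000285759. Only 1 of the 4 had a q of at most 0.01.

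*TFAP2B*, a second AP-2 gene expressed in the crest, and *MSX1*, a homeobox gene induced at the border by BMP signals, had no peak. Of the genes similar in length, 65.0% had a peak for *TFAP2B* and 41.4% for *MSX1*, and the rest had none. The surroundings were sparse as well. The nearest peak lay 400879 bp after the start of *TFAP2B* and 233682 bp before the start of *MSX1*, and the 500000-bp flanks held 6 and 14 peaks.

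*FOXD3*, a forkhead factor that maintains early crest cells and restrains the melanocyte lineage, is a gene of 1 exon with a locus of 12562 bp, and it too had no peak. Genes similar in length had a peak in 38.0% of cases. Unlike *TFAP2B* and *MSX1*, it lay among many peaks, with 92 in its flanks and the nearest 30718 bp before its start.

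*SNAI2*, a zinc-finger repressor of epithelial genes, is 4143 bp long and had 2 peaks. The stronger, chr8:49834143-49834452, spanned the start of the gene record, from 153 bp before to 156 bp after it, and reached a fold enrichment of 4.11 with a −log10 q of 3.82. Of all peaks, 95.9% had a lower fold enrichment. The other, of 2332 bp and 3.60, lay from 2491 to 4822 bp before the start. The lncRNA gene ENSG00000288761, transcribed in the opposite direction, overlapped the stronger peak, and ENSG00000287788 overlapped the other. Both peaks had a q of at most 0.01, and no peak lay wholly in the body of the gene.

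*ETS1*, an ETS-domain factor of cranial crest that takes part in delamination, lies on chromosome 11 from 128328656 to 128457453. It was the only one of the 6 occupied genes without a peak within 1000 bp of its canonical start. Within 5000 bp of the canonical start, 6 of the 9 genes had a peak. The count was also 6 within 1000 bp of any annotated start. No share of protein-coding genes is given for these wider rules, so both counts have no background and are not read as a result. The nearest of its 18 peaks began 3056 bp after the start and was the weakest of them (2.62). Of the 18, 14 lay in intron 3, and these included peaks of 4931, 4494, 4003 and 3849 bp. Both peaks overlapping *ETS1-AS1* belonged to this group. The strongest peak, chr11:128337250-128338089, lay in intron 8 near the other end of the gene, with a fold enrichment of 4.17, above 96.4% of all peaks, and a −log10 q of 4.33. Peaks covered 19.9% of the locus, the highest share of the 9, and 99.3% of genes similar in length had less of their locus covered.

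*ZEB2*, a zinc-finger and homeodomain repressor needed for crest migration and melanocyte differentiation, lies on chromosome 2 from 145121931 to 145278624. It combined the highest number of peaks with the lowest median fold enrichment of the genes with a peak. Its 24 peaks ranged from 2.43 to 3.26, and 8 had a q of at most 0.01. A peak of 1291 bp lay over the start (2.85) and overlapped *ZEB2-AS1*, and 2 more lay within 5923 bp before it, over the lncRNA gene *LINC01412*. The stronger of these (3.17) also overlapped *LINC02993*. Of the 24, 17 lay in intron 2, with lengths of 169 to 3699 bp, and the longest of all 80 peaks, 6938 bp, ran from exon 3 into intron 4 and held 231 bp of exons 3 and 4. From 99218 to 147789 bp after the start there was no peak, a stretch that holds the later exons.

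The strongest *ZEB2* peak, chr2:145254215-145255398, had a fold enrichment of 3.26, above 64.7% of all peaks, but its −log10 q of 3.34 was above 87.6%. One end of it overlapped the record ENSG00000279166. The same offset was seen across the gene. Among peaks with a −log10 q from 2 to 3, the median fold enrichment was 2.99 at *ZEB2* (7 peaks), 3.47 at *PAX3* (7), 3.28 at *ETS1* (7), 3.38 at *LEF1* (2) and 3.30 over all peaks. The background level under each peak was estimated from its fold enrichment and p, in the units of the peak caller's pileup. This level is therefore another form of the same offset and not a separate measurement. It had a median of 4.36 at *ZEB2* against 2.88 over all peaks, or 1.51 times as high. Peaks within 5 Mb of *ZEB2* had a median of 3.77, and the other 5 genes with a peak had medians from 2.63 to 3.17. Both comparisons were chosen after the values were seen, and whether this level bears on the number of *ZEB2* peaks was not tested. Without *ZEB2*, the remaining genes had 56 peaks with a median fold enrichment of 3.14.

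**Figure D3:**
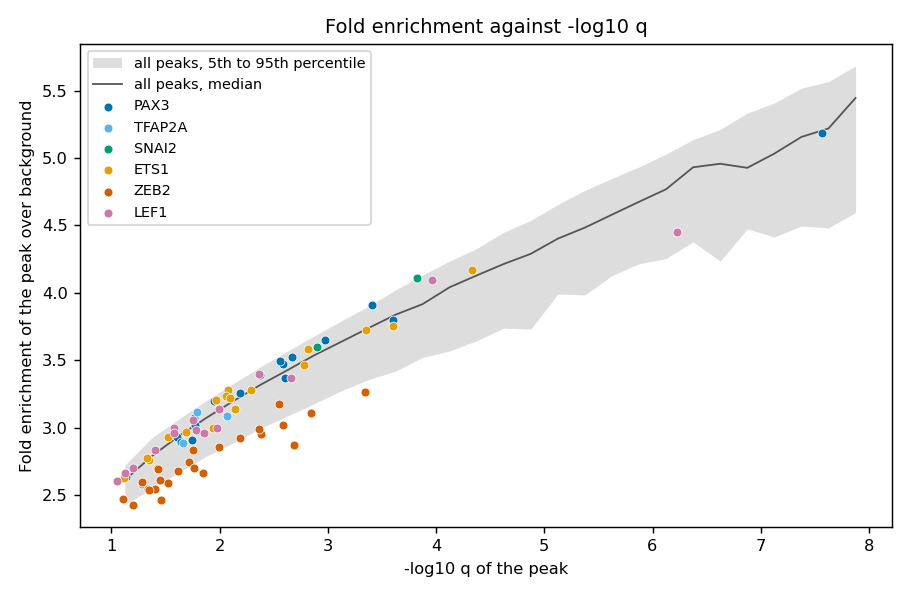
Fold enrichment of each peak over background (vertical axis, a ratio) against its −log10 q (horizontal axis), coloured by gene, over the median (line) and the 5th to 95th percentile (band) of all peaks of similar −log10 q. Most peaks of *ZEB2* lie near or under the lower edge of the band, with a median of 2.99 at −log10 q from 2 to 3, against 3.30 for all peaks.

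*LEF1*, an HMG-box factor that carries the Wnt signal to its targets together with β-catenin, lies on chromosome 4 from 108968701 to 109090112. Its peaks were short, with a median length of 292 bp against 613 bp for all peaks, and covered 8.69% of the locus. One peak lay wholly within exon 1, from 215 to 506 bp after the start, with a fold enrichment of 3.40 and an overlap with *LEF1-AS1*. The strongest, chr4:109037982-109038168, was 187 bp long and lay in intron 3, where the fold enrichment was 4.45 with a −log10 q of 6.23, and 98.2% of all peaks had a lower fold. A further intron 3 peak reached 4.09. The last peak ended 66575 bp after the start, still in intron 3, and the other 54836 bp of the gene had none.

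Over the 6 genes, 67 of the 80 peaks had their centre in an intron of the canonical transcript, 3 in an exon and 10 outside it, and 7 touched an exon. These counts are given without a share over all peaks and describe these loci only. In *PAX3*, *ETS1*, *ZEB2* and *LEF1*, 47 peaks were centred in the 5′ part of the gene up to its midpoint and 24 beyond it, which puts 66.2% in the 5′ part. Over 4894 protein-coding genes of at least 50000 bp with a peak, the share was 54.6%. This comparison was chosen after the positions were seen. It did not hold for each gene, since *PAX3* had 8 peaks on each side.

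**Figure D4:**
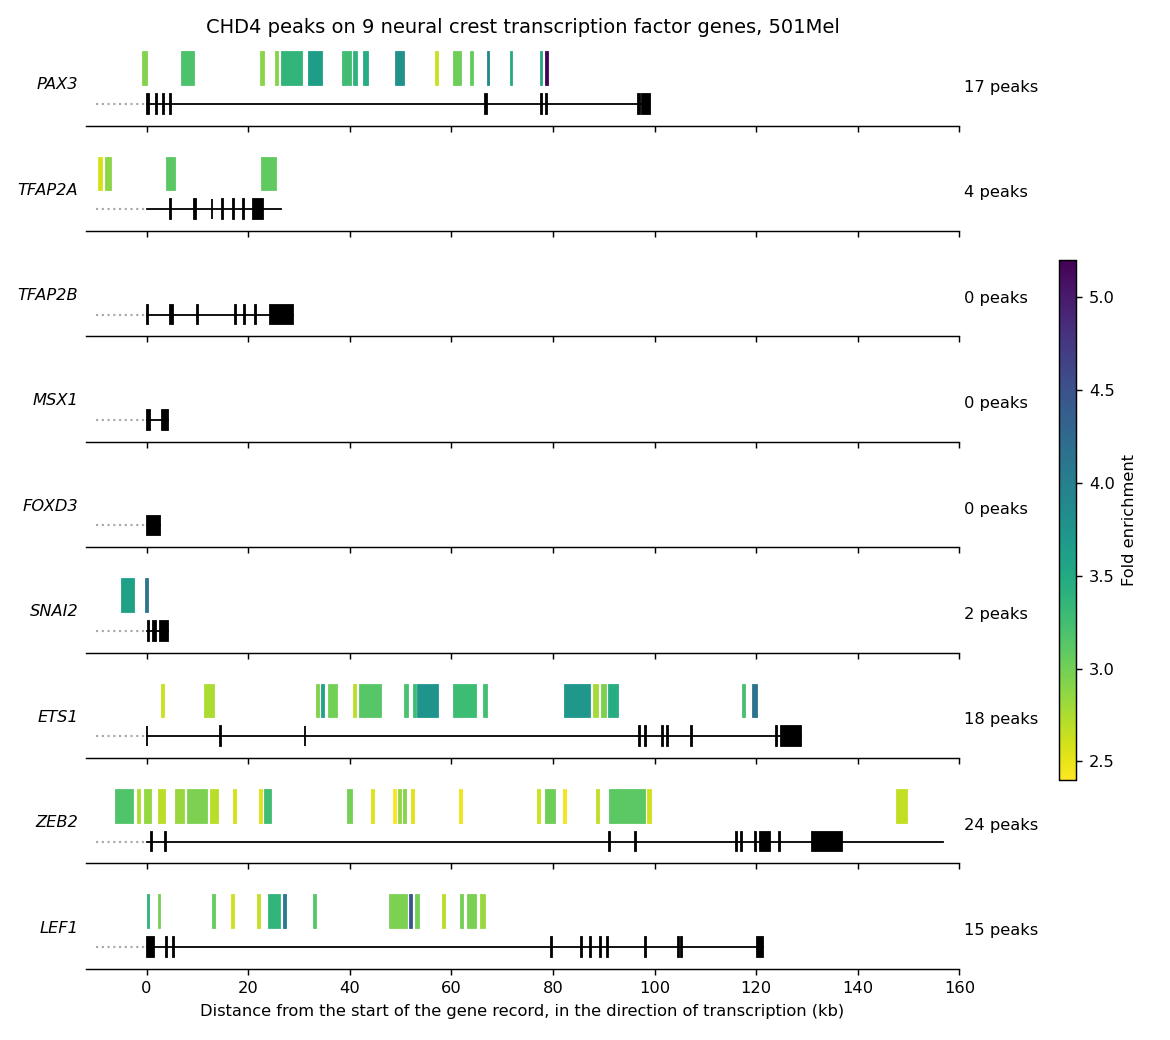
CHD4 peaks (coloured bars, by fold enrichment) over the exons (black boxes) of each gene, with the 10 kb before the start dotted and distance from the start of the gene record along transcription on the horizontal axis (kb). Very short peaks are drawn at a minimum width, and the peaks of *LEF1* end 66575 bp after its start while those of *ETS1* gather in intron 3.

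The rule of 10000 bp divided neighbouring peaks at *TFAP2A*, where a peak beginning 8786 bp before the start was inside (2.58) and the next, at 10403 bp, was outside (3.04). At *ETS1* the first peak outside lay at 10756 bp (2.91), and at *SNAI2* at 11197 bp, where its fold enrichment of 4.71 exceeded that of both *SNAI2* peaks inside. The members with no peak were not close to the limit.

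Few of the peaks lay over CpG-rich sequence. In the 300 bases at the peak centre, the median GC content was 41.0% at the 9 genes and 43.7% over all peaks, and the observed over expected CpG ratio had medians of 0.204 and 0.202. Both a GC content above 50% and a CpG ratio above 0.6 were found for 3 of the 80 peaks, or 3.75%, against 5.66% of all peaks. These 3 were the start peaks of *TFAP2A* (58.3% GC, CpG ratio 1.06), *SNAI2* (58.0%, 0.601) and *LEF1* (62.0%, 0.837). The start peaks of *PAX3* (57.0%, 0.330) and *ZEB2* (37.3%, 0.193) did not meet both limits. Within 500 bp of the canonical start, whether or not a peak lay there, both limits were met at *PAX3* (61.6% GC, CpG ratio 0.661), *TFAP2A* (57.3%, 0.718), *SNAI2* (50.9%, 0.768) and *LEF1* (62.9%, 0.757), which had a start peak. They were also met at *MSX1* (69.9%, 0.700) and *FOXD3* (68.2%, 0.812), which had none. They were not met at *ZEB2* (49.4%, 0.525), which had a start peak, or at *TFAP2B* (40.8%, 0.388) and *ETS1* (40.8%, 0.241), which did not.

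Motifs of the members' families, and those of MITF, AP-1 and CTCF, were searched in the same 300 bases on both strands. The E2 box bound by SNAI and ZEB factors (CAGGTG) was found in 13 of the 80 peaks, or 16.25%, against 19.8% of all peaks, and a homeodomain motif (CAATTA) also in 13, against 13.2%. The forkhead motif (TGTTTAC) was present in 7.5% against 4.57%, with 6 peaks shared between *ZEB2* (4) and *PAX3* (2). The LEF1/TCF motif (CTTTGAT) was present in 6.25% against 5.45%. The M box recognised by MITF (TCATGTG) was found in 6.25% against 6.85% and the AP-1 motif (TGANTCA) in 6.25% against 11.3%. Each of these 6 shares over all peaks fell within the Wilson 95% interval of the share at the 9 genes.

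The AP-2 motif (GCCNNNGGC) was found in 1 of the 80 peaks, the exon 1 peak of *LEF1*, or 1.25% (Wilson 95% interval 0.221% to 6.75%), against 7.68% of all peaks. In 500 bases it was found in 3 of the 80, or 3.75%, against 12.1% of all peaks. The fixed letters of this motif are all G or C, and the median GC content was 41.0% at these peaks against 43.7% over all peaks. Whether base composition bears on the share was not tested. Several motifs were searched, and the intervals are not corrected for their number. No peak at the 9 genes had the ETS motif (CCGGAAG) or the CTCF consensus, which were present in 1.76% and 0.953% of all peaks and lay under the upper limit of 4.58% that 0 of 80 allows. Of the windows shown above, only that of *ETS1* had a match, TGAGTCA at chr11:128337578-128337584. A match is a description of the letters and not a site.

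Other genes of the neural crest network were examined by the same rule. Of 31 genes, 16 had a peak, or 51.6%, below the 63.2% of all protein-coding genes, and the median locus of these genes was 21390 bp against 37220 bp. Among 10 further border genes only *ZIC1* and *PRDM1* had a peak, and those without included *PAX7*, *DLX3*, *DLX5*, *DLX6*, *GBX2*, *MSX2* and *TFAP2C*. Among 11 specifiers, *SOX10*, *SNAI1*, *TWIST1*, *ID2*, *ID3*, *NR2F1* and *RXRG* had peaks, and *SOX9*, *MYCN*, *HAND2* and *NR2F2* had none. The signal genes *WNT1*, *FGF8* and *NOTCH1* had peaks, *WNT3A* and *BMP4* none. Of 5 genes of the melanoblast, the precursor of melanocytes, *MITF*, *KIT*, *EDNRB* and *ERBB3* had peaks and *NGFR* had none. The strongest peaks were those of *NOTCH1* (4.64), *PRDM1* (4.00), *ERBB3* (3.94), *ID2* (3.85) and *KIT* (3.82), and all of these were below the 5.19 of *PAX3*. Singled out after their values were seen, *MITF* had 43 peaks, *TWIST1* 18, *EDNRB* 15, *SOX10* 8 and *ID3* 5, and the shares of genes similar in length with fewer peaks were 99.9%, 99.1%, 99.3%, 99.8% and 99.5%.

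Of 15 paralogues of the members, 8 had a peak, or 53.3%, against 63.2% of all protein-coding genes. *ZEB1*, the close relative of *ZEB2*, had none in a locus of 221319 bp, where 83.5% of genes similar in length had a peak. *PAX7* had none in 128021 bp, against 17 peaks in the 109112 bp of *PAX3*. Of the genes similar in length to *PAX7*, 77.0% had a peak. *ETS2* had none either, but its locus of 29773 bp is shorter than the 138798 bp of *ETS1*, and 62.4% of genes of its length had a peak. *FOXD4* and *MSX2* had none, like *FOXD3* and *MSX1*, and neither did *TFAP2C* and *TFAP2D*. The shares of genes similar in length with a peak were 37.2% for *FOXD4*, 49.1% for *MSX2*, 54.6% for *TFAP2C* and 70.3% for *TFAP2D*. The relatives of *LEF1* all had peaks, as it did, with strongest fold enrichments of 4.50 at *TCF7L1*, 3.85 at *TCF7L2* and 3.74 at *TCF7*. Most genes similar in length to these relatives had a peak as well, with shares of 81.6%, 83.1% and 67.0% in the same order. *FOXD1* (3.54), *FOXD2*, *SNAI1* (3.35), *SNAI3* and *TFAP2E* had peaks as well. *PAX7*, *TFAP2C*, *SNAI1* and *MSX2* are in both lists.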

How the data were processed

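The labels and the study's methods describe 1 CHD4 ChIP library and 1 input library of 501Mel. The labels name the NEXTflex kit for the libraries and the methods another kit, MicroPlex. The submitters' processing notes name bcl2fastq 2.17.1.14, Bowtie 1.0.0, MACS2 2.1.1.20160309 and hg19. The study's reporting summary names another version of Bowtie, and its number of peaks differs slightly from that of the deposited list. The control used for the peak call is not given in the sources used here. The deposited score equals the −log10 q multiplied by 10 and truncated. The deposited fold enrichment is a ratio over background, and the −log10 p and −log10 q are those the authors' peak caller gave. The list has no counts. The study's reporting summary gives a q setting of 0.01 for this broad call, whereas the largest q in the deposited list is 0.0991.

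Peaks on chromosomes 1 to 22, X and Y (60123, leaving out 3 mitochondrial) were compared with GENCODE release 44 mapped to GRCh37. The members and lists were chosen with earlier results of these data known. The 9 members are each described, list genes are named with and without a peak, and fold enrichments are given for the 5 highest of each list. Sequences are the centres of the strongest peaks, with none from chromosome 8 and none with over 30 bases of UTR, and what their capitals mark was chosen after they were read. 1 list gene and 1 sequence are not reported here. The background level was estimated with a pseudocount of 1 and a Poisson p, a formula that the list itself does not give. Alternatives covered stricter q, merged peaks, other loci, start widths, flanks, rankings and motif windows. Intervals are at 95%. Peaks and genes are not replicates. The computations were tested on simulated data and used samtools 1.23.1, pysam 0.24.0, scipy 1.17.1, pandas 2.3.3, numpy 2.4.6 and matplotlib 3.10.9 under Python 3.11.15.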

Additional observations from a re-analysis of the deposited data

How the results depend on the processing

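Of 81 comparisons of a value with an alternative, 46 stayed within 1.5 times the count or within the 95% interval of the value, and 35 moved. Peaks with a q of at most 0.01 left 35 peaks, a median fold enrichment of 3.39, 9.0% of the loci covered, a median GC content of 43.7%, start peaks at 2 genes (21.4% of protein-coding genes) and 5 of 15 paralogues with a peak (48.2%). A minimum −log10 q of 5 left 2 peaks at 2 genes, 0 at a start, a fold enrichment of 4.82, 0.0711% covered and 48.2% GC. These alternatives hold fewer peaks by construction. No share of protein-coding genes with a start peak is given for a −log10 q of at least 5, so the 0 at a start is not read as a result. Coverage was 16.9% with merged peaks, 14.9% for the gene record alone and 11.3% with 50000 bp before the start. For the gene record alone, 5 of 15 paralogues had a peak. No share of protein-coding genes is given for that shorter locus, so this count has no background and is not read as a result. The peak number stayed between 57 and 99 under merging and the planned loci, and the density over the flanks between 2.45 and 3.30. Of the alternatives added after the data were seen, leaving out *ZEB2* gave 56 peaks and a median fold enrichment of 3.14, and 10000 bp on both sides gave 84 peaks. Ranked by −log10 q, among peaks of the same chromosome, and among peaks of similar length, the strongest peak was above 99.7%, 99.8% and 99.6% at *PAX3*, 41.0%, 54.5% and 38.5% at *TFAP2A*, 92.8%, 95.5% and 97.2% at *SNAI2*, 95.8%, 95.9% and 97.3% at *ETS1*, 87.6%, 69.8% and 59.5% at *ZEB2*, and 99.2%, 98.1% and 95.2% at *LEF1*. In 500 bases the E2 box was found in 27.5% of peaks (30.3% of all peaks), a wider window by construction. No paired analysis was possible because the study holds 1 ChIP and 1 input library. The study's reporting summary gives the read totals of both libraries. The peak list gives no counts, so what depth limits could not be measured from it. A gene without a peak had none in a list whose largest q is 0.0991.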

Other observations

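Peaks beyond the loci differed among the members with few or no peaks inside. *FOXD3* had 14 peaks between 10 and 110 kb before its start, centred 30803 to 96326 bp away with fold enrichments up to 3.45, and 7 within 100 kb after its end. *TFAP2B* and *MSX1* had 0 on both sides over the same distances. *SNAI2* had 13 within 100 kb after its end, up to 4.23, and 3 before its start, the strongest (4.71, −log10 q of 5.81) centred 12501 bp away. *TFAP2A* had 12 before its start, the strongest (4.46, −log10 q of 5.57) centred 46031 bp away, and 5 after its end. These distances were chosen after the data were seen.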
